A study of Mus musculus with 12 samples.

Results

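The SLC25 proteins are the largest family of transport proteins of the mouse mitochondrial inner membrane, and their transcripts were followed here in hearts after myocardial infarction (MI). Rows of the deposited table with a symbol that starts with Slc25a were taken, and those with a mean of at least 5 normalized read counts over the 12 libraries were kept, which gave 42 of 44 genes. The rule used the symbol and the mean over all libraries, not the differences between groups. It was set with earlier results of these data known. The limit can also be met through a single group, as it was by Slc25a18 (below). Slc25a18 (mean 5.26), Slc25a31 (9.23) and Slc25a43 (9.43) lay just inside the limit, and Slc25a21 (2.67) and Slc25a48 (0.75) lay outside it. Slc25a2, Slc25a41 and Slc25a54 had no row in the deposited table and so were not analysed here.

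Each carrier is built from a repeated pair of membrane helices and alternates between a form open to the cytosol and a form open to the matrix, usually exchanging one substrate for another. In heart muscle the ADP/ATP carriers and the phosphate carrier feed ATP synthase and release its product, while others bring in acylcarnitines for fatty acid oxidation or run the malate-aspartate shuttle, which moves reducing equivalents into the matrix. Smaller branches of the family carry amino acids, iron, glutathione, cofactors and pyrimidine nucleotides, and a few members lie in peroxisomes or in the outer membrane.

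Poly-A RNA was taken from hearts of wild-type female mice aged 12 weeks, in groups called Sham, MI+PBS and MI+Agrin, with 4 libraries each. Infarction had been produced by permanently tying the LAD, the coronary artery that supplies the front wall of the left ventricle, and RNA was extracted 2 weeks later. MI+PBS animals carry the name of the saline vehicle, and MI+Agrin animals that of agrin, a heparan sulfate proteoglycan of the extracellular matrix whose form, dose and route the labels do not give. The design text gives 4 separate animals per group and also lists a further infarcted group that no library used here carries. Which piece of the heart was taken, and how much infarct it held, is not in the labels. The question put to these data is how the carriers differ between sham-operated hearts, infarcted hearts and infarcted hearts given agrin.

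Between 15799 and 15898 genes were above 0 in each library, and 20238512 to 22742027 reads were recovered for 11 libraries from the steps of their values. The first principal component of all genes (40.8% of the variance) placed MI+PBS replicate 2 at 45.16, beyond the 21.14 to 24.9 of the remaining 3 in its group. On the second component (11.9%) MI+Agrin replicate 1 lay apart at -40.17. Counts below are therefore also given without these libraries. All 10 cardiomyocyte markers were detected in every library, and their summed counts were 1707065 to 2017008 in Sham, 1057340 to 1498535 in MI+PBS and 1421715 to 1609765 in MI+Agrin. Summed counts of 9 fibroblast markers were 113768 to 167370, 292934 to 327810 and 217535 to 301216 in the same order, and those of 10 macrophage markers 20871 to 25717, 40354 to 48079 and 29912 to 45955. In tissue RNA, fewer cells of a type and less RNA per cell cannot be told apart.

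The carriers together made up 0.852% to 0.972% of all normalized counts in Sham, 0.653% to 0.756% in MI+PBS and 0.724% to 0.814% in MI+Agrin. Sham libraries thus all lay above the others, while MI+PBS and MI+Agrin overlapped. Slc25a4, which encodes the ADP/ATP carrier of heart and skeletal muscle, took 49.4% to 54.8% of the family's counts in the 12 libraries. With the phosphate carrier Slc25a3 and the oxoglutarate carrier Slc25a11 it took 71.2% to 76.4%.

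Levels can be set against each other only per length, and per kilobase of exon Slc25a4 averaged 44720 normalized counts in Sham. Slc25a11 followed at 6799, Slc25a3 at 5208, the second ADP/ATP carrier Slc25a5 at 2293 and Slc25a34, a carrier whose substrate is not settled, at 2171. Both aspartate/glutamate carriers stood high, Slc25a13 at 1225 and Slc25a12 at 892.5, with the glutathione carrier gene Slc25a39 between them at 1081. Slc25a20, the carnitine/acylcarnitine carrier, averaged 654.4 counts per kilobase in Sham. At the other end were Slc25a53 (2.753), the glutamate carrier Slc25a18 (3.503), Slc25a43 (3.882) and Slc25a31 (7.211), the last a testis form of the ADP/ATP carrier.

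**Figure D1:**
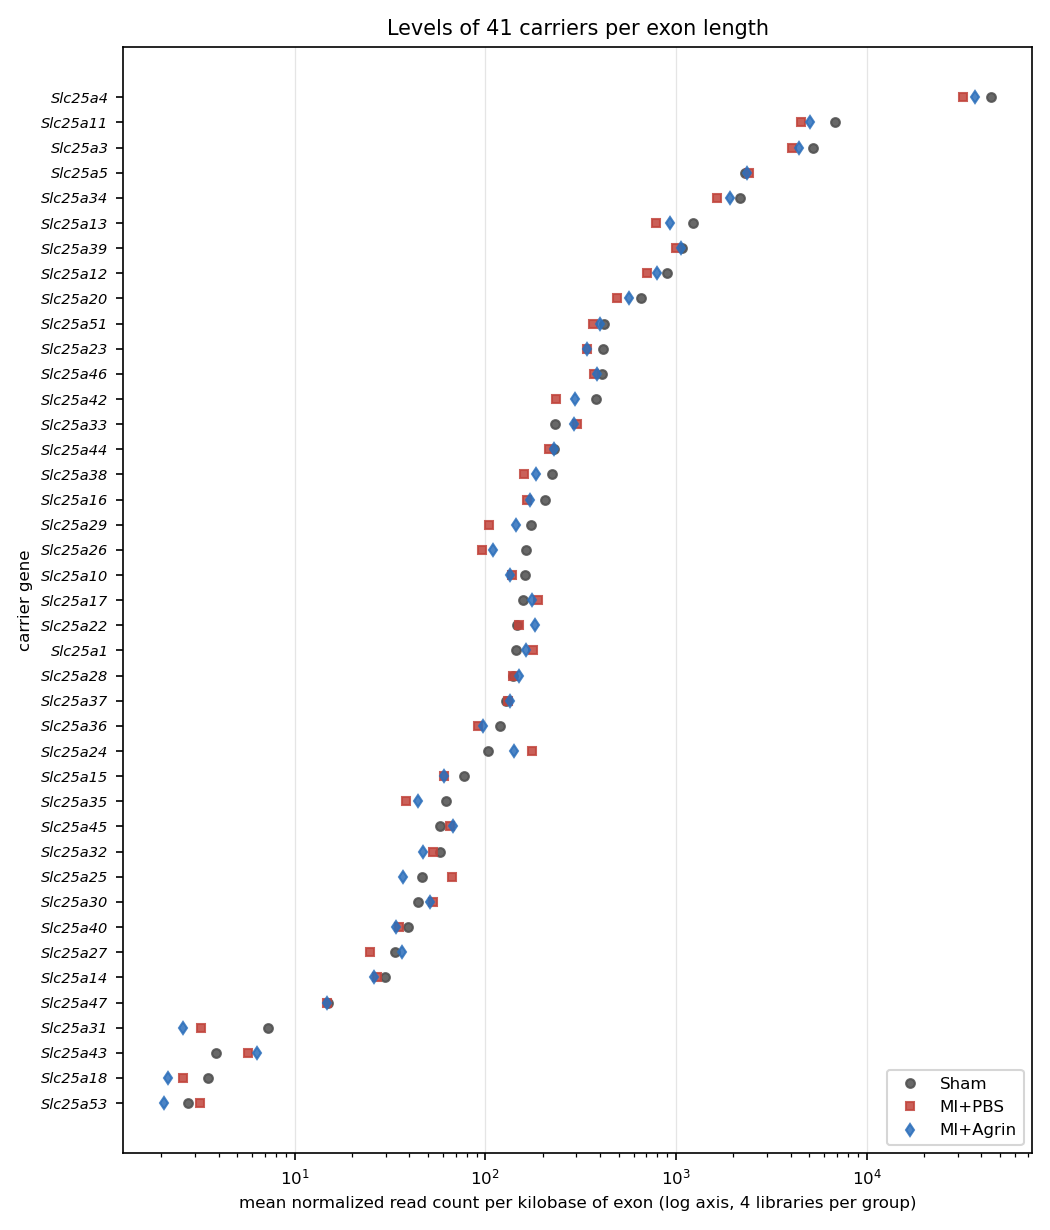
Mean normalized read count per kilobase of exon (log axis) for 41 carriers in Sham (circles), MI+PBS (squares) and MI+Agrin (diamonds), 4 libraries per group. Slc25a4 lies alone at the top with 44720 in Sham and 32140 in MI+PBS, and the lowest genes lie below 10.

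The 3 promoter windows are shown because they belong to the most abundant carrier and to the 2 carriers that passed the threshold between the infarcted groups (Slc25a25 and Slc25a29, below). They are RefSeq windows on GRCm38.p6 (mm10), from 250 bases before a transcription start to 50 after it, written 5′ to 3′ along the gene. All 3 genes lie on the minus strand. Capitals mark matches on either strand to the cyclic AMP response element (TGACGTCA), the CCAAT box (CCAAT or ATTGG) and the GC box (GGGCGG or CCGCCC).
Slc25a25 at chr2:32424017-32424316: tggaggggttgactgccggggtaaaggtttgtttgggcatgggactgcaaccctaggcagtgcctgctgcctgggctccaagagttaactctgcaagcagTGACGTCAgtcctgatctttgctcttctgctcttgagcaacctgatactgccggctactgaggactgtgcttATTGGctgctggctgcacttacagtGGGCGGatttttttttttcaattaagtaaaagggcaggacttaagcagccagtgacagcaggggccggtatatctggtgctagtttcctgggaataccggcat
Slc25a29 at chr12:108835827-108836126: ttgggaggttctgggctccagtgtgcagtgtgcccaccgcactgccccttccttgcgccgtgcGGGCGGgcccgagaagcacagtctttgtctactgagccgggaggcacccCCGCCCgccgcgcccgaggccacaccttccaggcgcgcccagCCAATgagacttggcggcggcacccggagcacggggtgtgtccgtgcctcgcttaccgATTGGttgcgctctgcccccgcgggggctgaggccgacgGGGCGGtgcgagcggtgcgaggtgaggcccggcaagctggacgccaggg
Slc25a4 at chr8:46211013-46211312: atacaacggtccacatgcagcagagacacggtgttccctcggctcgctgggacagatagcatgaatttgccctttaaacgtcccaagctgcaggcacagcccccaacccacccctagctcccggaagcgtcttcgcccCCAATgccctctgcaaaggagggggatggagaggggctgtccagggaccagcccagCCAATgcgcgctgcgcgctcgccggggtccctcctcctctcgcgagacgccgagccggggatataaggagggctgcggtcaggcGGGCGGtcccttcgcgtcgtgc
Counting the start as 1 and the base before it as -1, the Slc25a25 window holds the cyclic AMP response element at -150, a CCAAT box at -78 and a GC box at -53. This is 1 of 3 annotated starts of Slc25a25. The windows of the other starts are not shown and hold no cyclic AMP response element. The window at chr2:32451421-32451720 holds CCAAT boxes and GC boxes, and that at chr2:32431102-32431401 holds CCAAT boxes. Which of these starts was used in the hearts was not tested. Slc25a29 has CCAAT boxes at -96 and -38 and GC boxes at -187, -138 and 2. In the separate annotation used for exon lengths, Slc25a47 begins inside this window, at position 108836046 of chromosome 12 on the opposite strand. The RefSeq window of Slc25a47 lies elsewhere, at chr12:108850879-108851178. Slc25a4 has CCAAT boxes at -112 and -56 and a GC box at 29.

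RefSeq windows were used for 33 of the 42 members, and the other 9 had none or are not shown. A gene was counted once if any of its starts had a match. The cyclic AMP response element was found in 2 of the 33 (Slc25a25 and Slc25a36, 6.06%), against 2.03% of all 27025 genes with a window. GC boxes were found in 29 of 33 members (87.9%) against 38.2% of all genes, and CCAAT boxes in 18 (54.5%) against 41.1%. The NRF1 site was in 0 of 33 members and 1.07% of all genes. The oestrogen-related receptor element (TCAAGGTCA or TGACCTTGA) was in 0 of 33 members and 0.466% of all genes, and its shorter core (AAGGTCA or TGACCTT), which it contains, was in Slc25a34 (3.03%) and in 5.38% of all genes. The members were chosen by expression in these hearts, while all genes with a window include those not expressed there. The 2 sets are therefore unlike, and their shares do not show a trait of carriers. These are letters in a window, not sites shown to be bound.

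In MI+PBS against Sham 17 of the 42 carriers fell and 3 rose, and 22 did not pass. The carriers that fell cover ADP/ATP and phosphate exchange (Slc25a4, Slc25a3), the malate-aspartate shuttle (Slc25a11, Slc25a12, Slc25a13), acylcarnitine import (Slc25a20), and several amino acid and cofactor carriers. The 3 that rose were Slc25a24 and Slc25a25, carriers of ATP-magnesium for phosphate that calcium activates, and Slc25a17, which serves peroxisomes. The threshold was a limma p-value with Benjamini-Hochberg adjustment over all 14906 genes tested, at 0.05. Among all genes 44.4% passed it, 22.6% higher and 21.8% lower, while among the carriers 7.14% were higher and 40.5% lower. The median log2 fold change of the carriers was -0.22, and that of all genes was -0.01. Without MI+PBS replicate 2 the counts were 3 higher and 15 lower.

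**Figure D2:**
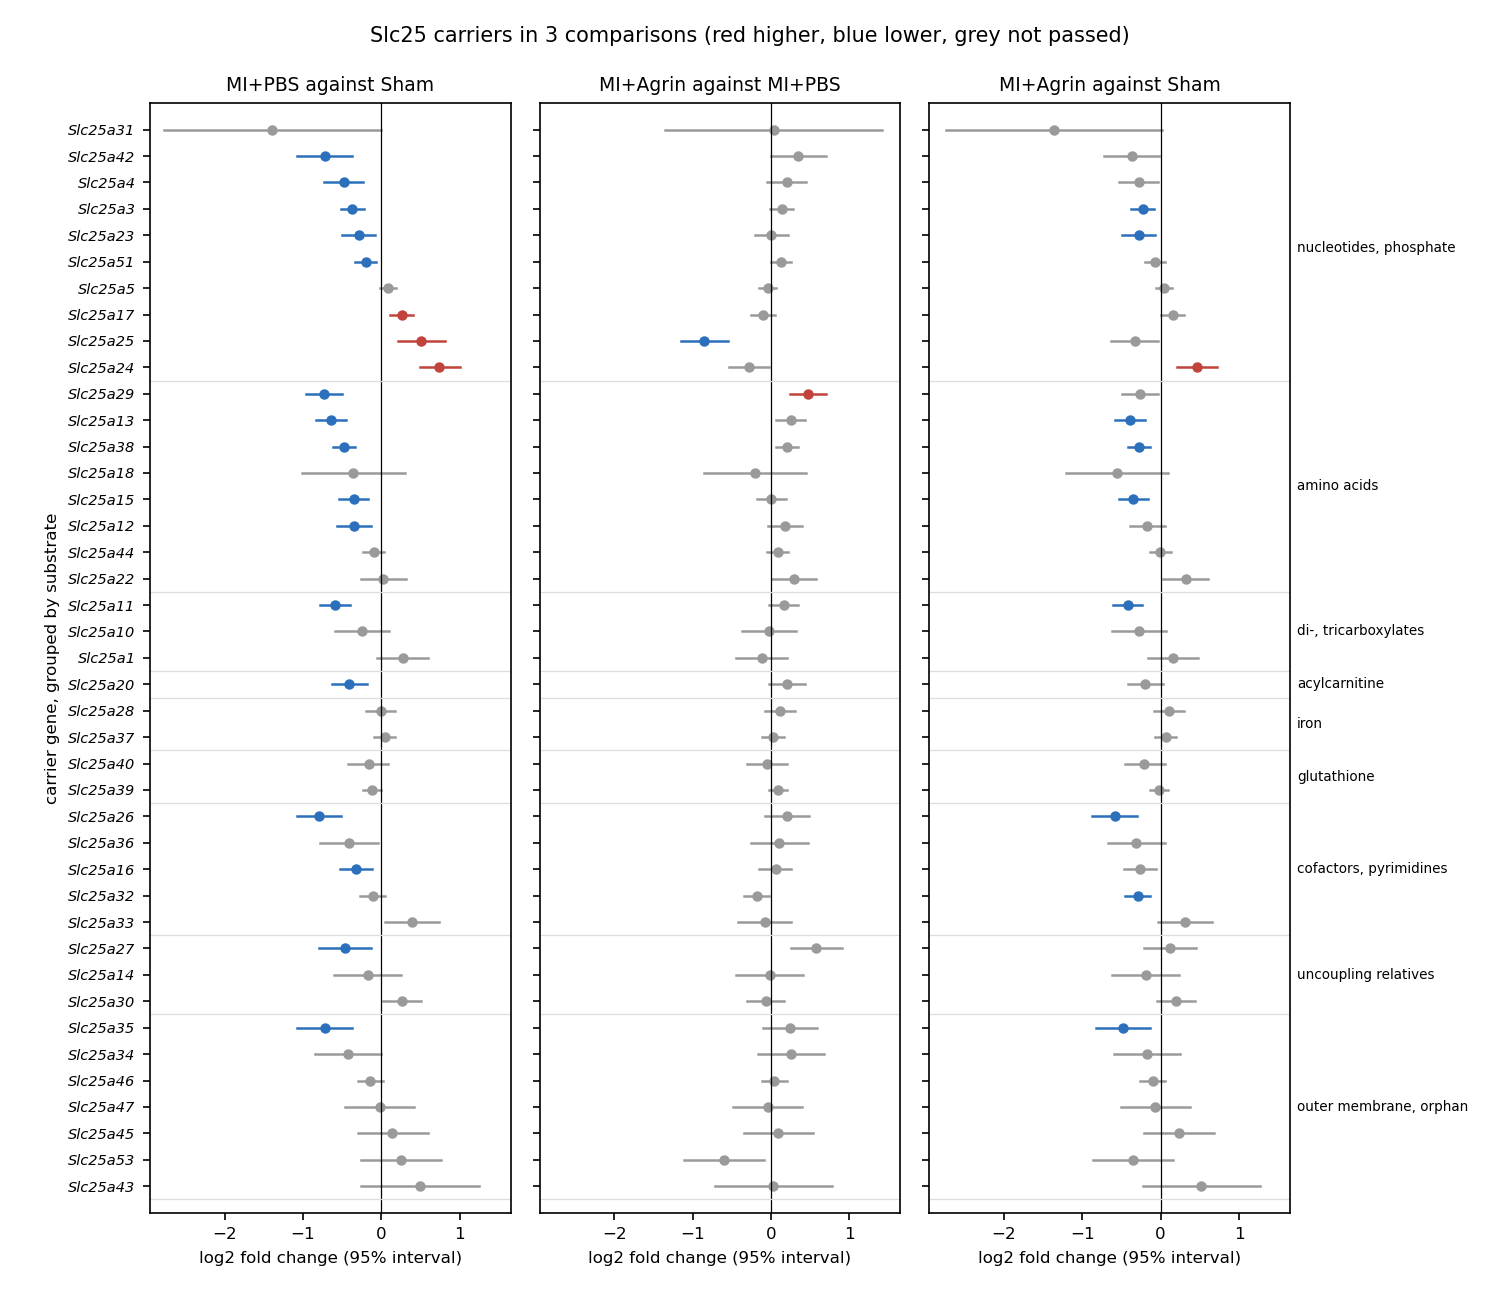
Log2 fold change of 41 carriers (points) with its 95% interval (lines) in the 3 comparisons, grouped by substrate, on the same horizontal scale. Red marks carriers that passed as higher, blue those that passed as lower and grey those that did not pass. In MI+PBS against Sham 16 points are blue and 3 red, and in MI+Agrin against MI+PBS 1 is blue and 1 red.

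ADP/ATP and phosphate exchange held the largest amounts of transcript. In the order of their replicate numbers, normalized counts of Slc25a4 were 96864, 98896, 121081 and 104043 in Sham, 79947, 66435, 71669 and 84424 in MI+PBS, and 92059, 93796, 82899 and 77545 in MI+Agrin. Every infarcted library lay below every Sham library, and MI+PBS and MI+Agrin overlapped. Slc25a4 fell in MI+PBS by 0.48 on the log2 scale (SE 0.12, limma adjusted p = 0.0051), to 0.72 times its Sham level. In MI+Agrin against the same Sham libraries the log2 difference was -0.28 (SE 0.12, limma adjusted p = 0.0886), which did not pass. It did pass with DESeq2 on the recovered reads (-0.32, adjusted p = 0.0172) and in limma without both MI+PBS replicate 2 and MI+Agrin replicate 1 (-0.31, adjusted p = 0.0484). With edgeR on the same reads it did not pass. Those reads lack Sham replicate 2, the lowest Sham library for Slc25a4.

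Slc25a5 encodes the ADP/ATP carrier of dividing and non-muscle cells. Its counts were 3735, 3606, 4012 and 3747 in Sham, 4265, 4015, 3817 and 3901 in MI+PBS, and 3836, 3999.6, 3889.6 and 3819 in MI+Agrin. The 3 groups overlapped, and the log2 difference between MI+PBS and Sham was 0.083 (95% interval -0.02 to 0.19, limma adjusted p = 0.189). Of the 61-base windows of its transcripts 26.5% also occur in 7 other genes, most of them in Gm5560, so its counts are uncertain. The markers of dividing cells moved in the same libraries: all 8 passed as higher in MI+PBS, with summed counts of 802 to 1756 in Sham, 3934 to 6826 in MI+PBS and 2497 to 3976 in MI+Agrin. Their part in the Slc25a5 values was not tested.

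Slc25a3, the phosphate carrier, had 26892, 28249, 31879.8 and 28596 counts in Sham, 23413, 20969, 22404 and 22817 in MI+PBS, and 25371, 24677, 24441 and 23851 in MI+Agrin. The 3 groups did not overlap, with Sham highest and MI+PBS lowest. Slc25a3 fell in MI+PBS by 0.37 on the log2 scale (SE 0.07, limma adjusted p = 0.000856). It also fell in MI+Agrin against Sham, by 0.23 (SE 0.07, limma adjusted p = 0.0215), a call that was lost without Sham replicate 4 (adjusted p = 0.0666), MI+Agrin replicate 4 (0.0528) or MI+Agrin replicate 5 (0.0618). Slc25a31 was near the limit of detection, at 7.08, 19.16, 24.3 and 10.84 in Sham, 17.49, 5.82, 3.1 and 0.99 in MI+PBS, and 4.05, 1.97, 5.63 and 10.35 in MI+Agrin. Its groups overlapped, and the log2 difference of -1.39 in MI+PBS (SE 0.64, limma adjusted p = 0.0948) did not pass. Without MI+PBS replicate 1 it did, at -1.96 (limma adjusted p = 0.0162).

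The 3 calcium-regulated carriers load or empty the matrix pool of adenine nucleotides, and they did not move one way. Slc25a24 counts were 366, 359.9, 332 and 354 in Sham, 575, 793, 522 and 513 in MI+PBS, and 471, 456, 511 and 513 in MI+Agrin. All 8 infarcted libraries lay above all Sham libraries, and the highest of all was MI+PBS replicate 2. Slc25a24 rose by 0.74 on the log2 scale in MI+PBS (SE 0.12, limma adjusted p = 0.000322), to 1.67 times its Sham level, the largest rise among the 42 Slc25a genes. MI+Agrin libraries had more than Sham, by 0.46 (SE 0.12, limma adjusted p = 0.0108).

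Slc25a25 counts were 387, 353, 332 and 387 in Sham, 599.6, 605, 452 and 445 in MI+PBS, and 346, 249.7, 244 and 330.1 in MI+Agrin. The MI+PBS libraries lay above all others, and Sham and MI+Agrin overlapped. The log2 difference between MI+PBS and Sham was 0.51 (SE 0.14, limma adjusted p = 0.00925), or 1.43 times. In MI+Agrin against Sham it was -0.33 (SE 0.14, limma adjusted p = 0.0888), which passed only without MI+Agrin replicate 1 among the single libraries left out (-0.42, adjusted p = 0.0422), and without both that library and MI+PBS replicate 2 (adjusted p = 0.0324). Slc25a23, the third of these carriers, fell in MI+PBS by 0.29 (SE 0.10, limma adjusted p = 0.0288), with overlapping groups. That call was lost without MI+PBS replicate 1 (limma adjusted p = 0.0516) or 2 (0.0874), or Sham replicate 3 (0.0551), 4 (0.0898) or 5 (0.0554).

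The other nucleotide carriers moved in both directions. Slc25a42, which brings coenzyme A into the matrix, had 2194, 1986, 2511 and 2420.4 counts in Sham, 1563, 961, 1659 and 1452 in MI+PBS, and 1898, 2137, 1468 and 1592 in MI+Agrin. All MI+PBS libraries lay below Sham, replicate 2 lowest, and the log2 difference was -0.72 (SE 0.16, limma adjusted p = 0.00314). In MI+Agrin against Sham Slc25a42 passed in limma fits of only the 8 libraries of both groups (-0.37, adjusted p = 0.0403) or without both libraries that lay apart (-0.41, adjusted p = 0.0253). Slc25a17, the peroxisomal carrier of coenzyme A, FAD and NAD, had 479, 435, 450.1 and 437 counts in Sham, 531, 586, 517 and 521 in MI+PBS, and 499, 464, 548 and 498 in MI+Agrin. MI+PBS lay above Sham without overlap, by 0.26 on the log2 scale (SE 0.07, limma adjusted p = 0.00826). Slc25a51, a carrier of NAD, fell by 0.20 (SE 0.06, limma adjusted p = 0.0183), which was lost without Sham replicate 5 (adjusted p = 0.0551) and with edgeR on the recovered reads (adjusted p = 0.0522).

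The malate-aspartate shuttle joins the oxoglutarate carrier to an aspartate/glutamate carrier, and all 3 of its carriers fell. Slc25a11 counts were 13806, 13653, 15999 and 14201 in Sham, 11196, 8397, 9309 and 9544 in MI+PBS, and 10828, 11665, 10068 and 10376 in MI+Agrin. Slc25a11 fell to 0.66 times its Sham level in MI+PBS (log2 -0.59, SE 0.09, limma adjusted p = 0.000208) and to 0.75 times in MI+Agrin (log2 -0.42, SE 0.09, limma adjusted p = 0.00374). No infarcted library reached the lowest Sham library, and MI+PBS and MI+Agrin overlapped. Of its exon bases 8.92% also belong to Rnf167.

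Slc25a13 counts were 4713, 4159, 5181 and 4559 in Sham, 3438, 2895, 2849 and 2781 in MI+PBS, and 3609, 3687, 3100.2 and 3819 in MI+Agrin. Slc25a13 fell by 0.64 on the log2 scale in MI+PBS (SE 0.09, limma adjusted p = 0.000142) and by 0.39 in MI+Agrin against Sham (SE 0.09, limma adjusted p = 0.00626). The infarcted libraries again all lay below Sham. Slc25a12, the form better known from muscle and brain, had 6297, 6629.6, 6702 and 6581 counts in Sham, 5803, 3982, 5515 and 5526 in MI+PBS, and 5829, 6447.5, 5362 and 5679.9 in MI+Agrin. It fell by 0.35 in MI+PBS (SE 0.10, limma adjusted p = 0.0143), with replicate 2 far below the remaining 3 libraries of its group. Without that library the difference was -0.22 (limma adjusted p = 0.012). Against Sham, MI+Agrin differed by -0.17 (SE 0.10, limma adjusted p = 0.226), and it passed at an adjusted p of 0.0496 in a limma fit of only the 8 libraries of both groups.

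Of 6 listed enzymes of the shuttle, 4 fell in MI+PBS against Sham (Mdh1, Mdh2, Got1 and Got2) and 0 rose. Mdh1, the cytosolic malate dehydrogenase, averaged 59414 counts in Sham and 42992 in MI+PBS (log2 -0.47, SE 0.09, limma adjusted p = 0.000857).

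Among the other amino acid carriers, the glycine carrier Slc25a38, needed for heme synthesis, gave the smallest p of the family. Its counts were 571, 594, 661 and 627 in Sham, 466, 427, 440.3 and 426 in MI+PBS, and 498, 542, 507 and 484 in MI+Agrin. The 3 groups did not overlap, with Sham highest and MI+PBS lowest. Slc25a38 fell by 0.48 on the log2 scale in MI+PBS (SE 0.06, limma adjusted p = 0.000129) and by 0.27 in MI+Agrin against Sham (SE 0.06, limma adjusted p = 0.00813). Slc25a15, the ornithine carrier, fell by 0.35 in both comparisons with Sham (limma adjusted p = 0.00508 and 0.01), while the glutamate carrier Slc25a22 and the branched-chain amino acid carrier Slc25a44 did not pass in either. Slc25a22 passed as higher in MI+Agrin against Sham in limma fits of only the 8 libraries of both groups (0.32, adjusted p = 0.0214) or without both libraries that lay apart (0.37, adjusted p = 0.0129).

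Slc25a29 carries basic amino acids such as arginine and lysine. Its counts were 414, 555, 400.5 and 445 in Sham, 273, 295, 246 and 273 in MI+PBS, and 366, 428, 351 and 362 in MI+Agrin. MI+PBS lay below both other groups without overlap, while MI+Agrin and Sham overlapped. The log2 difference between MI+PBS and Sham was -0.73 (SE 0.11, limma adjusted p = 0.000199), or 0.60 times. Slc25a18 was close to the limit of detection, at 5.05, 5.32, 9.51 and 6.9 in Sham, 5.83, 3.88, 6.2 and 3.94 in MI+PBS, and 4.05, 4.94, 3.75 and 3.76 in MI+Agrin, and did not pass in any comparison. Its mean was 6.695 in Sham, 4.9625 in MI+PBS and 4.125 in MI+Agrin, so it met the mean of 5 only through Sham. A fall of Slc25a18 against Sham is therefore partly built into its selection.

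Slc25a20 is the carrier of acylcarnitine import. Its counts were 3021, 2762, 3747 and 3150.3 in Sham, 2605, 1995, 2654 and 2308 in MI+PBS, and 2553, 3057, 2639 and 2776 in MI+Agrin. MI+PBS lay below Sham without overlap, and MI+Agrin overlapped both. Slc25a20 fell by 0.41 on the log2 scale in MI+PBS (SE 0.10, limma adjusted p = 0.00713), and the difference between MI+Agrin and Sham was -0.20 (SE 0.10, limma adjusted p = 0.179). Of the 7 genes listed with it for carnitine use, 5 fell in MI+PBS (Cpt1b, Cpt2, Crat, Slc22a5 and Acsl1) and 2 rose (Cpt1a and Cpt1c). Crat, carnitine acetyltransferase, averaged 20367 counts in Sham and 14385 in MI+PBS (log2 -0.51, SE 0.10, limma adjusted p = 0.0013).

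Slc25a1, the citrate carrier that supplies the cytosol for fatty acid synthesis, did not follow. Its counts were 314, 349, 316 and 275 in Sham, 427, 439, 287 and 381 in MI+PBS, and 405, 286, 410.2 and 313 in MI+Agrin, so that all groups overlapped. The log2 difference between MI+PBS and Sham was 0.28 (95% interval -0.05 to 0.60, limma adjusted p = 0.152). Without MI+PBS replicate 3, its lowest library, the difference was 0.41 and passed (limma adjusted p = 0.0275). The dicarboxylate carrier Slc25a10 differed by -0.25 (SE 0.16, limma adjusted p = 0.231). Among 5 genes that use citrate or make fatty acids, 2 fell in MI+PBS (Acacb and Me1) and 0 rose.

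Neither of the iron carriers, the mitoferrins, passed in any comparison. Slc25a37 counts were 809.7, 747, 794 and 737 in Sham, 804, 761, 869 and 745 in MI+PBS, and 853, 807, 787 and 783 in MI+Agrin. Slc25a28 counts were 499, 495, 565 and 542 in Sham, 479, 481, 516 and 621 in MI+PBS, and 620.2, 532, 581 and 530.5 in MI+Agrin. In both genes the groups overlapped. Against Sham, the MI+PBS difference was 0.041 for Slc25a37 (95% interval -0.09 to 0.17) and -0.009 for Slc25a28 (-0.20 to 0.18) on the log2 scale, and a change within these intervals cannot be told from none. Of 12 genes of heme and iron-sulfur cluster synthesis, which use the imported iron, 9 fell in MI+PBS and 0 rose. Abcb10, a mitochondrial membrane protein tied to heme synthesis, averaged 1875 counts in Sham and 1288 in MI+PBS (log2 -0.54, SE 0.08, limma adjusted p = 0.000157). Exons of Slc25a37 share 6.33% of their bases with Gm27223 and Gm31748. Red blood cells could bring mitoferrin 1, and of 9 erythroid markers 4 were in the table. The globin genes Hba-a1, Hba-a2, Hbb-b2, Hbb-bs and Hbb-bt had no row, so the amount of blood RNA is not known. Summed counts of the 4 markers were 67.99 to 616.6 in Sham, 146.5 to 401.1 in MI+PBS and 130.5 to 1036 in MI+Agrin. Their part was not tested. The glutathione carrier Slc25a39 and its relative Slc25a40 differed by -0.12 (SE 0.05) and -0.16 (SE 0.12) in MI+PBS, and neither passed (limma adjusted p = 0.0991 and 0.292).

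Cofactor carriers gave the largest fall that passed. Slc25a26 brings in S-adenosylmethionine, the methyl donor of the matrix, and had 921, 695, 768 and 778 counts in Sham, 464, 373, 579.8 and 426 in MI+PBS, and 529, 611, 514 and 454 in MI+Agrin. All 8 infarcted libraries lay below Sham. Slc25a26 fell to 0.58 times its Sham level in MI+PBS (log2 -0.79, SE 0.13, limma adjusted p = 0.00047) and to 0.67 times in MI+Agrin (log2 -0.58, SE 0.13, limma adjusted p = 0.00629).

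Slc25a16, linked to coenzyme A supply, also fell in MI+PBS, by 0.32 (SE 0.09, limma adjusted p = 0.0143). Slc25a32, linked to folate and FAD transport, differed by -0.11 in MI+PBS (limma adjusted p = 0.236) and fell by 0.29 in MI+Agrin against Sham (SE 0.07, limma adjusted p = 0.011).

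The pyrimidine nucleotide carriers Slc25a33 and Slc25a36 lay on opposite sides of 0, at 0.39 (SE 0.16) and -0.41 (SE 0.17) in MI+PBS against Sham, and neither passed (limma adjusted p = 0.0586 and 0.066). Slc25a33 passed without Sham replicate 4 (0.50, limma adjusted p = 0.0273) and Slc25a36 without MI+PBS replicate 1 (-0.56, adjusted p = 0.0118). Slc25a33 also passed in a limma fit of only the 8 libraries of both groups (adjusted p = 0.026). Of the Slc25a33 exon bases 14.9% belong to Gm13068 too.

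Relatives of the uncoupling proteins include Slc25a27, best known from brain. Its counts were 130.4, 121, 139 and 135 in Sham, 87.46, 70.81, 118 and 113 in MI+PBS, and 131, 150.03, 132 and 159.9 in MI+Agrin. MI+PBS lay below both other groups. The log2 difference between MI+PBS and Sham was -0.46 (SE 0.15, limma adjusted p = 0.0262), a call lost without MI+PBS replicate 1 (adjusted p = 0.064) or 2 (0.0695), or Sham replicate 2 (0.051), 4 (0.0654) or 5 (0.0578). It was also lost with edgeR on the recovered reads (adjusted p = 0.0649), which likewise lack Sham replicate 2. Slc25a30 differed by 0.26 (SE 0.11, limma adjusted p = 0.0708) and passed without Sham replicate 2 (0.34, adjusted p = 0.0311) or MI+PBS replicate 1 (0.32, adjusted p = 0.0396). It passed as higher on the recovered reads with both edgeR (0.34, adjusted p = 0.0326) and DESeq2 (0.34, adjusted p = 0.0243). Both of these fits lack Sham replicate 2, the highest Sham library for Slc25a30 (236.53). They are therefore not separate from the limma fit without that library. Slc25a14 differed by -0.17 (SE 0.20, limma adjusted p = 0.501). Ucp2, a member of the wider family under another symbol, rose from a mean of 2705 counts in Sham to 5349 in MI+PBS (log2 0.99, SE 0.17, limma adjusted p = 0.000508) and stood at 4591 in MI+Agrin (log2 0.76 against Sham, SE 0.17, limma adjusted p = 0.00573).

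Of the 7 carriers of the outer membrane or without a settled substrate, Slc25a35 alone passed in MI+PBS. Its counts were 213, 204, 244 and 256 in Sham, 197, 136, 104 and 129 in MI+PBS, and 173, 151, 159 and 170.2 in MI+Agrin. Both infarcted groups lay below Sham, with a log2 difference of -0.72 in MI+PBS (SE 0.16, limma adjusted p = 0.00277). Its exons share 31.3% of their bases with Rangrf, so that this value is uncertain. Slc25a34, abundant per length, differed by -0.43 (SE 0.20, limma adjusted p = 0.0964). The other 5 (Slc25a43, Slc25a45, Slc25a46, Slc25a47 and Slc25a53) lay between -0.14 and 0.49. Slc25a44, the branched-chain amino acid carrier, passed as lower without Sham replicate 4 (-0.15, limma adjusted p = 0.0463).

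**Figure D3:**
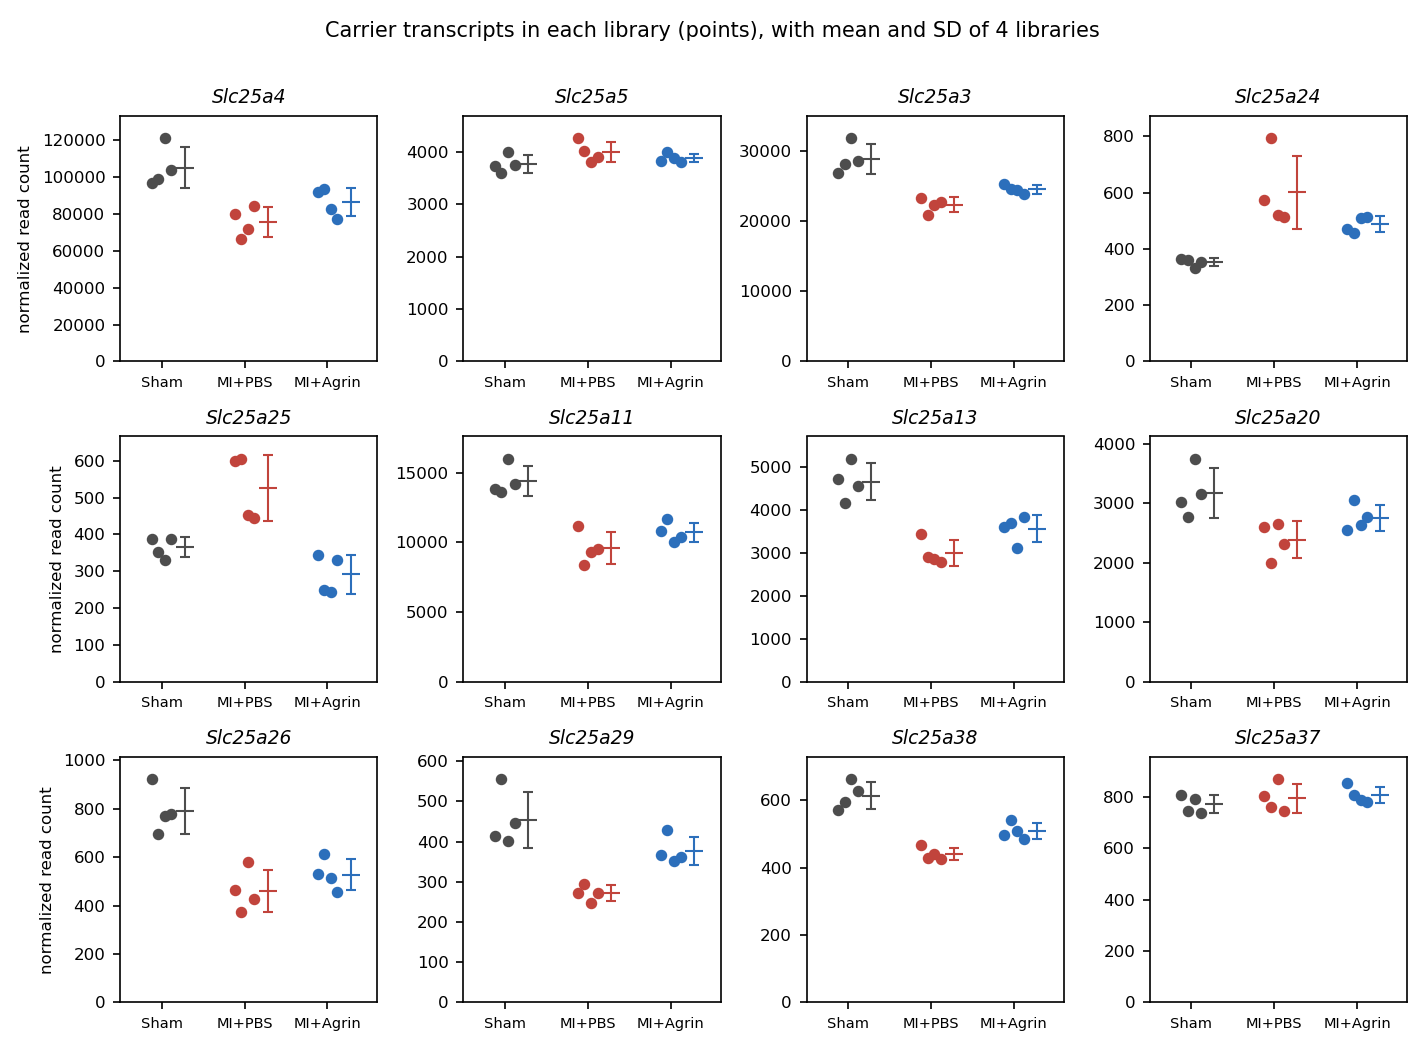
Normalized read counts of 12 carriers in each library (points), with the mean and SD of the 4 libraries of each group (cross bars), all axes from 0. Slc25a4, Slc25a11, Slc25a13 and Slc25a26 lie lower in all infarcted libraries than in Sham, Slc25a24 higher, Slc25a25 is highest in MI+PBS, and Slc25a5 and Slc25a37 overlap between all groups.

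Related carriers were set against each other within each library, a measure that does not depend on library scaling. Slc25a5 was at 4.74% to 5.51% of Slc25a4 per length in Sham, 6.61% to 8.64% in MI+PBS and 5.96% to 7.04% in MI+Agrin. Both infarcted groups lay above Sham, by 0.56 and 0.32 on the log2 scale. Slc25a24 was at 20.9% to 28.8% of Slc25a23 in Sham, 40.1% to 77.6% in MI+PBS and 34.3% to 50.3% in MI+Agrin, again above Sham in both groups (log2 1.03 and 0.74). Slc25a25 was at 9.13% to 13.3% of Slc25a23 in Sham, 15.1% to 25.8% in MI+PBS and 9.3% to 14.1% in MI+Agrin. It was above both other groups in MI+PBS without overlap.

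Across 8 such ratios and 3 comparisons, 24 two-sided exact permutation tests of 4 libraries against 4 were made, whose smallest possible p is 0.0286. That value was reached in 9 tests, and each had an adjusted p of 0.0762 over the 24 exact tests, so 0 passed. Besides those above, the 9 include Slc25a33 over Slc25a36 in both comparisons with Sham (log2 0.80 and 0.62) and Slc25a22 over Slc25a18 in MI+Agrin against Sham (log2 0.87), where Slc25a18 is near the limit of detection. Slc25a18 was kept only through its Sham values, so this last ratio is not independent of the selection. Slc25a13 over Slc25a12, Slc25a37 over Slc25a28 and Slc25a40 over Slc25a39 had overlapping groups in every comparison.

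**Figure D4:**
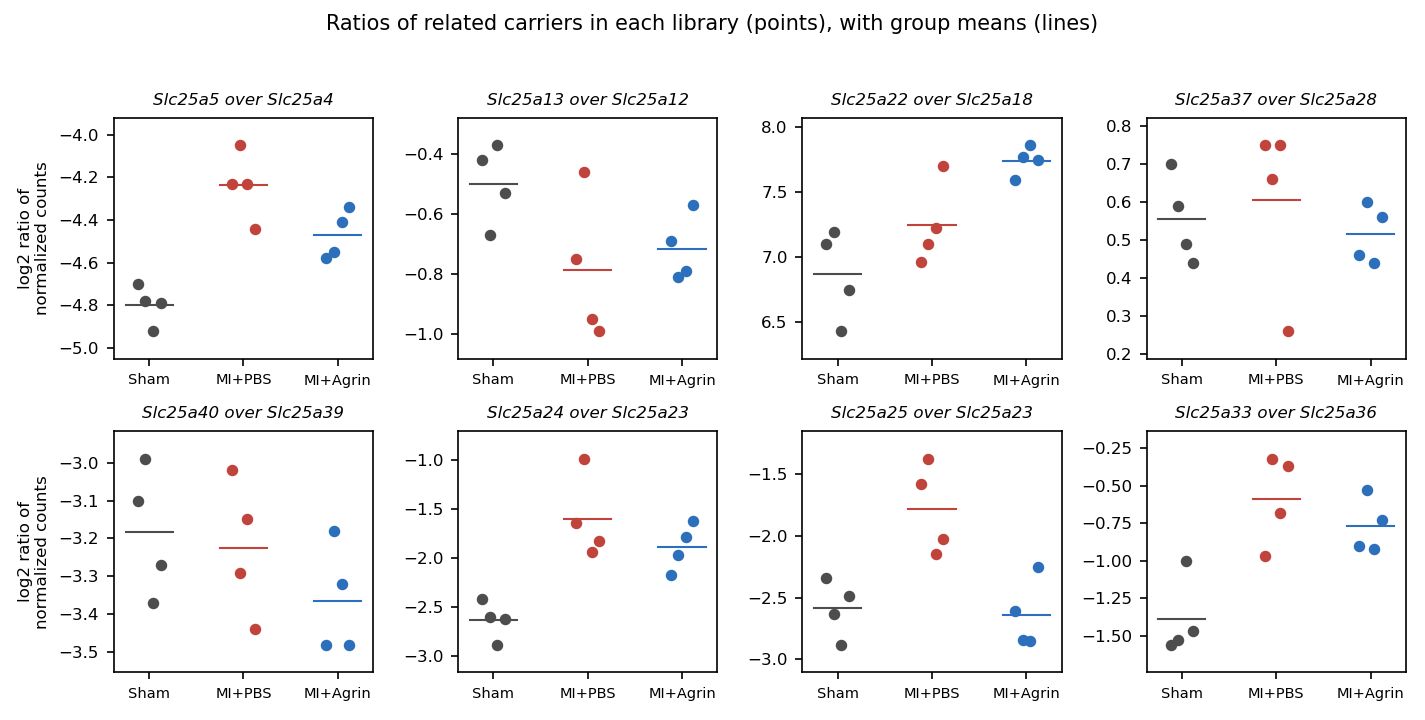
Log2 ratio of normalized counts of 8 pairs of related carriers in each library (points), with group means (lines). Counts are not divided by length here, so only the differences between libraries can be read. Slc25a5 over Slc25a4 and Slc25a24 over Slc25a23 lie higher in all infarcted libraries than in Sham, and Slc25a25 over Slc25a23 is highest in MI+PBS.

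Between the infarcted groups, which asks what agrin changed, 2 of the 42 carriers passed: Slc25a25 was lower in MI+Agrin and Slc25a29 was higher. Of all 14906 genes 245 passed (1.64%), 0.751% higher and 0.892% lower, and 145 passed without MI+PBS replicate 2 and 137 without MI+Agrin replicate 3. A single carrier in each direction (2.38% of 42) is too few to be told from these shares. The remaining 40 carriers had log2 differences between -0.60 (Slc25a53) and 0.58 (Slc25a27). The median over the carriers was 0.07 with 28 of 42 above 0, and the median over all genes was 0.0000. This comparison shares its 4 MI+PBS libraries with the comparison of MI+PBS and Sham, so a low or high MI+PBS value enters both with opposite signs.

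Slc25a25, with the counts given above, fell in MI+Agrin by 0.85 on the log2 scale (SE 0.14, 95% interval -1.15 to -0.55, limma adjusted p = 0.00823), to 0.56 times its MI+PBS level. All 4 MI+Agrin libraries lay below all 4 MI+PBS libraries. The call was kept without any single library and was lost in a fit of only the 8 infarcted libraries (limma adjusted p = 0.0502). Of its exon bases 4.82% belong to Naif1 too.

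Slc25a29 rose in MI+Agrin by 0.47 (SE 0.11, 95% interval 0.24 to 0.70, limma adjusted p = 0.0463), to 1.38 times its MI+PBS level, with all 4 libraries above MI+PBS. The call is at the threshold and was lost whichever of the 8 infarcted libraries was left out. The adjusted p was then 0.0905, 0.0639, 0.0762 and 0.0727 without MI+PBS replicates 1, 2, 3 and 5, and 0.0882, 0.139, 0.0583 and 0.0819 without MI+Agrin replicates 1, 3, 4 and 5. The log2 difference stayed between 0.41 and 0.51 in those fits. The call was also lost with edgeR (adjusted p = 0.0664), without the filter on low genes (0.0631), without the intensity trend (0.069) and with only the 8 infarcted libraries (0.0657), and it was kept with DESeq2 (0.00701).

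A further pair of carriers were named by the smallest p-values here. Slc25a27 differed by 0.58 (SE 0.15, limma adjusted p = 0.0793), all MI+Agrin libraries above MI+PBS, and passed without MI+PBS replicate 3 (0.68, adjusted p = 0.0425) and with DESeq2 on the recovered reads (0.56, adjusted p = 0.0329). Slc25a38 differed by 0.21 (SE 0.06, limma adjusted p = 0.127), also without overlap. For the abundant carriers the differences and 95% intervals were 0.20 for Slc25a4 (-0.05 to 0.45), 0.14 for Slc25a3 (-0.01 to 0.28), 0.16 for Slc25a11 (-0.02 to 0.35) and 0.21 for Slc25a20 (-0.02 to 0.44). Each of these intervals includes 0. Slc25a13 differed by 0.25 (0.06 to 0.44, limma adjusted p = 0.166), Slc25a12 by 0.18 (-0.04 to 0.39) and Slc25a24 by -0.28 (-0.53 to -0.03, limma adjusted p = 0.226).

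Against Sham, MI+Agrin hearts had fewer transcripts of 9 carriers and more of 1, Slc25a24, and 32 did not pass. Of all genes 28.6% passed, 15.4% higher and 13.2% lower, against 2.38% and 21.4% of the carriers. The median log2 difference over the carriers was -0.20, and -0.0021 over all genes. The 9 that fell were Slc25a3, Slc25a11, Slc25a13, Slc25a15, Slc25a23, Slc25a26, Slc25a32, Slc25a35 and Slc25a38. Slc25a23 fell by 0.28 (SE 0.10, limma adjusted p = 0.0459) and lost the call without Sham replicate 3, 4 or 5 or MI+Agrin replicate 3, 4 or 5 (adjusted p 0.0796 to 0.133), without the filter on low genes (0.0597) and without the intensity trend (0.0716). Slc25a35 fell by 0.48 (SE 0.16, limma adjusted p = 0.0377). It lost the call without Sham replicate 2, 4 or 5 or MI+Agrin replicate 3, 4 or 5 (limma adjusted p 0.0578 to 0.0987). The call was also lost with edgeR (0.0542), whose reads lack Sham replicate 2, and in limma without both libraries that lay apart (0.052).

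The largest differences among the carriers in MI+Agrin against Sham were those of Slc25a31 (-1.36, SE 0.64, limma adjusted p = 0.129), Slc25a26 and Slc25a18 (-0.56, SE 0.30, limma adjusted p = 0.186). That of Slc25a18 is partly built in, since only its Sham values kept it among the members. Slc25a16 passed without MI+Agrin replicate 1 (-0.35, limma adjusted p = 0.0087), among genes with a mean of at least 50 (-0.26, 0.048) and with only the 8 libraries of both groups (-0.26, 0.0448), Slc25a29 without MI+Agrin replicate 3 (-0.32, adjusted p = 0.0466) and Slc25a33 without MI+Agrin replicate 4 (0.45, adjusted p = 0.044). Without both MI+PBS replicate 2 and MI+Agrin replicate 1, 2 carriers were higher and 12 lower.

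A part of the carriers, among them those of ADP/ATP and phosphate, serves the respiratory chain and ATP synthase. All 28 listed subunits of the respiratory chain fell in MI+PBS against Sham (median log2 -0.46), and 13 of 15 ATP synthase subunits fell (median -0.43), while 0 of either list rose. In MI+Agrin against Sham 23 of 28 and 9 of 15 fell, and between the infarcted groups 0 of 28 and 0 of 15 passed in limma (15 and 3 at an unadjusted p under 0.05, 0 and 0 with edgeR, 1 and 2 with DESeq2). Atp5o, a stalk subunit of ATP synthase, averaged 16069 counts in Sham, 11532 in MI+PBS and 12791 in MI+Agrin.

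Of 11 genes that import carriers into the inner membrane, 2 fell in MI+PBS (Timm22 and Timm8b) and 9 did not pass. Timm8b, a chaperone of the intermembrane space, averaged 1496 counts in Sham and 1131 in MI+PBS (log2 -0.41, SE 0.09, limma adjusted p = 0.00204). Timm22 (limma adjusted p = 0.0381) passed with neither edgeR nor DESeq2, and Timm8b with both. Among all genes 21.8% were lower. Other mitochondrial transport genes were divided, with 6 of 16 higher and 6 lower. Tspo, an outer membrane protein abundant in macrophages, rose (log2 0.82, SE 0.09, limma adjusted p = 5.12e-05), and Ppif, the cyclophilin that regulates the permeability transition, fell (log2 -0.58, SE 0.07, limma adjusted p = 6.26e-05).

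Cell type markers moved in the same libraries as the carriers. In MI+PBS against Sham, 6 of 10 cardiomyocyte markers fell, 4 of 9 fibroblast markers rose and 1 fell, 10 of 10 macrophage markers rose, and 5 of 6 neutrophil markers rose, with summed neutrophil counts of 228.5 to 327.9 in Sham, 603.5 to 1108 in MI+PBS and 546.2 to 960.2 in MI+Agrin. The median log2 difference of the cardiomyocyte markers was -0.52 in MI+PBS and -0.34 in MI+Agrin against Sham, beside -0.22 and -0.20 for the carriers. Between the infarcted groups 0 of 10 cardiomyocyte, 0 of 9 fibroblast and 0 of 10 macrophage markers passed in limma, edgeR or DESeq2, with 1 of each list at an unadjusted limma p under 0.05. Of 7 endothelial markers 1, Kdr, was higher in MI+Agrin than in MI+PBS (0.56, SE 0.09, limma adjusted p = 0.00756). Of 8 smooth muscle and pericyte markers 1, Kcnj8, was higher (0.56, SE 0.07, limma adjusted p = 0.00165). Kdr and Kcnj8 both passed with edgeR and DESeq2. The median log2 differences of these lists were 0.01 and -0.05, with 3 genes of each at an unadjusted limma p under 0.05. Summed endothelial counts were 25082 to 28143 in Sham, 23331 to 25957 in MI+PBS and 24461 to 26104 in MI+Agrin, and summed smooth muscle and pericyte counts were 30992 to 32657, 28979 to 34102 and 27360 to 31136. DESeq2 also passed Acta2 and the adipocyte marker Lep between the infarcted groups, and 0 of 7 adipocyte, 0 of 8 dividing-cell, 0 of 6 neutrophil, 0 of 8 lymphocyte, 0 of 3 erythroid and 0 of 4 skeletal muscle markers passed in limma (4, 3, 0, 0, 0 and 1 at an unadjusted p under 0.05). How much of the carrier differences goes with these markers was not tested.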

How the data were processed

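RNA of 12 mouse hearts in 3 groups of 4 had been sequenced as 61-base single reads. The build was mm10, and the tools listed were HTSeq, DESeq2 1.10.1, STAR 2.4.2a and cutadapt, per the submitters' processing notes. What each tool did, which annotation was used and whether strand was counted is not given in the sources used here. Signal values in the deposited table are normalized read counts, per the file headers, for 16218 genes. Values of 11 libraries were whole multiples of 1 step (99.99% to 100% within 0.0055 reads), which gave whole reads. For Sham replicate 2 the step was too close to 1 to recover reads, so tests on reads leave that library out.

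Genes with a mean of at least 5 (14906) were fitted over all 12 libraries on log2(value + 1), using an intensity trend, in limma 3.58.1 under R 4.3.3. Fold changes are on that scale, which understates those of low genes. Benjamini-Hochberg adjustment ran over all genes at 0.05. The planned test for normalized values was used, since the table holds no raw counts. Ratios used exact permutation tests (scipy 1.17.1). The fit was tested on simulated data with the same dispersion for every gene and changes planted only in genes with a mean of at least 50. It therefore does not show how the fit does on low or more variable genes. Alternatives were other pseudocounts, filters and thresholds, TMM rescaling, DESeq2 1.42.0 or edgeR 4.0.16 fitted to the recovered reads, limma with the trend left out, fewer libraries and a replicate block. On the recovered reads edgeR passed 5834 genes in MI+PBS against Sham, 192 between the infarcted groups and 3309 in MI+Agrin against Sham. Figures were drawn with matplotlib 3.10.9.

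Exon lengths, coordinates and shared 61-base windows came from an mm10 gene annotation and its transcripts, and promoters from RefSeq. The members, gene lists and tests were chosen with earlier results of these data known, and the 2 libraries that lay apart were known as well. Values in every library were set down for 11 carriers of energy metabolism and iron chosen by role (Slc25a1, Slc25a3, Slc25a4, Slc25a5, Slc25a11, Slc25a12, Slc25a13, Slc25a20, Slc25a28, Slc25a37 and Slc25a38). To these were added the 6 largest rises (only 3 existed) and 6 largest falls past the threshold in MI+PBS against Sham, the 4 smallest p-values in MI+Agrin against MI+PBS and the 3 largest differences in MI+Agrin against Sham, 22 carriers in all. From each other gene list, examples were taken from the 4 smallest p-values in MI+PBS against Sham. Carriers named because a call changed without 1 library, and genes named beside small counts, were chosen after their values were seen. The values of 1 carrier are not reported here, although the counts include it.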

Additional observations from a re-analysis of the deposited data

Results flagged for a closer look

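In each group of 4 libraries, the highest and lowest counts of 27 carriers (22 Slc25a genes and 5 family genes under other symbols) were compared with the rest of the group. The gap, as a share of the range, passed Dixon's 95% critical value in 4 of 81 groups, and chance alone would give about 1 in 20.

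Slc25a12, an aspartate/glutamate carrier, had 3981.76 counts in MI+PBS replicate 2, against 5514.96 to 5802.7 in the remaining MI+PBS libraries. Among the other Slc25a genes looked at, this library had the lowest MI+PBS counts of Slc25a3, Slc25a4, Slc25a11, Slc25a18, Slc25a20, Slc25a26, Slc25a27 and Slc25a42. Its counts of Slc25a1, Slc25a17, Slc25a24, Slc25a25 and Slc25a29 were the highest in MI+PBS, and those of the rest lay between. The library also lay apart on the first principal component of all genes.

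Ucp1, the uncoupling protein of brown fat, had 829.0 counts in MI+Agrin replicate 1 and 4.7 to 39.42 in the remaining MI+Agrin libraries. Of the 7 listed markers of fat cells, Ucp1 included, 6 were highest of all 12 libraries there, with Adipoq at 758.05, Plin1 at 401.32, Cidec at 910.07, Lep at 117.56 and Cidea at 746.91. Fabp4, the most abundant marker, was not: its 9632.77 was the lowest of the MI+Agrin group (10158.69 to 11045.25 in the others). The library also lay apart on the second principal component. The part of fat tissue in its values was not tested.

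Ucp2, an uncoupling protein relative abundant in immune cells, had 4221.56 counts in MI+PBS replicate 1, below the 5692.81 to 5747.51 of the remaining MI+PBS libraries and above all 4 Sham libraries (2227 to 3348). Ucp3, the form of muscle, had 668.87 counts in Sham replicate 4, against 363.89 to 388.12 in the remaining Sham libraries.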

How the results depend on the processing

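In MI+PBS against Sham, members passing numbered 15 to 21 under every alternative run (20 as reported) and 17 to 21 when 1 library was left out. No named member that passed as reported changed sign under any alternative. Rescaling moved no library by more than 0.008 on the log2 scale. Between the infarcted groups, all genes passing numbered 607 with DESeq2, 93 with only the 8 infarcted libraries, 137 without both MI+PBS replicate 2 and MI+Agrin replicate 1, 83 at 0.01 and 137 to 327 without 1 library, against 245. Members passing there were 1 (0 higher) without filter, without trend, with edgeR, without both libraries and at 0.01, 0 (0 higher, 0 lower) with the 8 libraries, and 1 to 2 (0 to 1 higher) without 1 library. DESeq2 passed 2 as higher, Slc25a29 and Slc25a27 (adjusted p = 0.0329). For MI+Agrin against Sham, 2062 genes and 4 members (0 higher, 4 lower) passed at 0.01, and 2 members were higher with the 8 libraries of both groups or without both libraries. Without 1 library, 7 to 12 members passed there, 1 to 2 as higher and 6 to 11 as lower. Where no construction of the alternative shows it, the cause was not tested.

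Replicate numbers come from sample names alone, and same-numbered libraries did not deviate together (correlations -0.285 to 0.121), so they were not treated as pairs. With the number as a replicate block, 75 genes and 1 member (0 higher) passed in MI+Agrin against MI+PBS. In MI+PBS against Sham 20 members passed with it, Slc25a36 in place of Slc25a27 (adjusted p = 0.0353 and 0.0598), and in MI+Agrin against Sham 12, with Slc25a16 and Slc25a25 added.

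None of the differences that changed sign had passed as reported. Slc25a28 in MI+PBS against Sham was 0.010 with the block, 0.029 without both libraries and -0.093 to 0.031 without 1 library. Slc25a37 ran from -0.003 to 0.071 without 1 library there, and in MI+Agrin against MI+PBS from -0.005 to 0.069, with -0.022 without both libraries. Slc25a31 in MI+Agrin against MI+PBS was -0.050 with a pseudocount of 5, -0.30 with edgeR, -0.19 with the block and -0.47 to 0.60 without 1 library. Slc25a24 over Slc25a23 in MI+Agrin against MI+PBS was 0.012 without both libraries and -0.40 to -0.082 without 1. Leaving out 1 library gave -0.078 to 0.006 for Slc25a37 over Slc25a28 and -0.18 to 0.029 for Slc25a25 over Slc25a23 in MI+Agrin against Sham, and -0.11 to 0.027 for Slc25a40 over Slc25a39 in MI+PBS against Sham. The exact tests of ratios cannot reach the threshold with 3 libraries against 4, so their count was not taken without 1 library.

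The number of libraries, 4 per group, limits the precision of every difference.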
